A study of Mus musculus with 24 samples.

Results

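The late phase of culture in lactic acid was followed by setting the 3 arrays of 4T1 cells kept for 11 days in 20 mM lactic acid and 3 mM glucose against the 3 arrays of cells kept for 7 days in the same medium, 6 of the 24 arrays of the series. Arrays were assigned by their titles, no control and no day 9 array entered the contrast, and all 19938 genes with a named probe set were tested. 4T1 is a mouse mammary carcinoma line. The series also holds 3 arrays each of control cells, grown in 3 mM glucose without added lactic acid, and of cells after 1, 3, 4, 5 and 9 days in lactic acid. Total RNA was measured on single-colour Affymetrix arrays, and values are log2 signals in which 1 unit is a 2-fold step. The labels name the replicates biological but do not say that they came from separate cultures, so p-values measure the spread between these samples. How long the control cells were cultured is not stated either.

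Lactate is the end product of glycolysis, and a cell with little glucose can take it up and oxidise it through pyruvate. Cells that leave the division cycle let the mRNAs of mitotic kinases, kinesins and replication factors decline, and histone mRNAs, which are made mainly while DNA is copied, usually decline with them. Immediate early genes such as Fos answer growth factors and stress within minutes and decay fast. In tumour cells, secreted proteases, collagens and chemokines shape the surrounding matrix and draw in leukocytes.

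From day 7 to day 11 most genes moved little, and the largest rises included histone and immediate early genes while the largest falls included a secreted protease, a chemokine and a basement membrane collagen. In the fit over all 24 arrays, 401 of 19938 genes (2.01%) differed at an adjusted p below 0.05 (limma), 109 of them higher on day 11 (0.547%) and 292 lower (1.46%). The change was under 0.5 in size for 95.9% of all genes, and its median over all genes was -0.01. Called rises had a median of 0.63 and called falls a median of -0.60; 12 rises and 7 falls reached 2-fold. All 401 called genes had the 3 day 11 arrays on one side of the 3 day 7 arrays, as did 33.9% of all genes. These are bulk samples, in which fewer cells expressing a gene and less RNA per cell cannot be told apart.

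**Figure D1:**
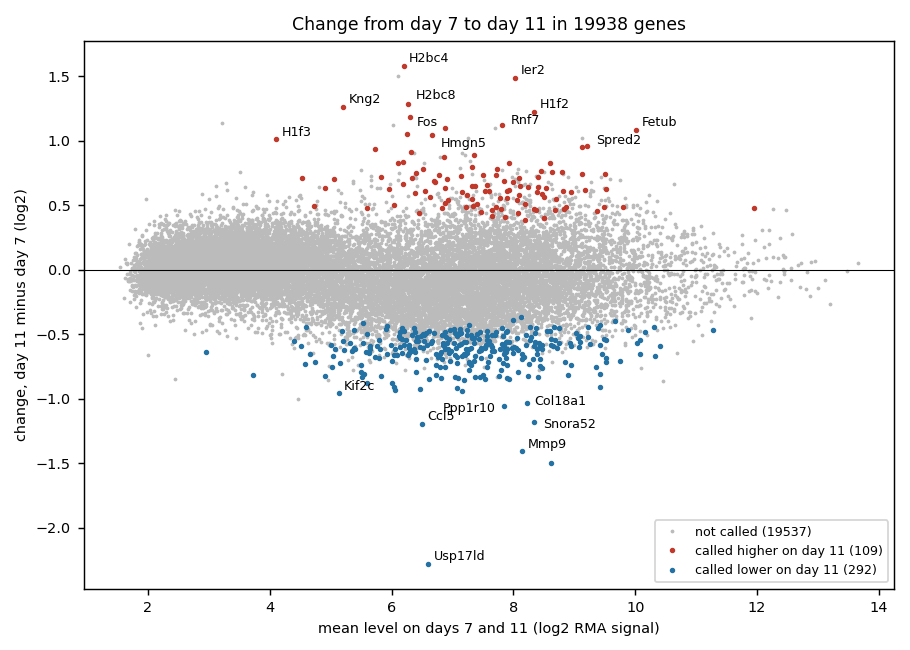
Change from day 7 to day 11 (y axis, log2) against the mean level on both days (x axis, log2 signal) for 19938 genes. Red points are the 109 genes called higher on day 11, blue points the 292 called lower and grey points genes not called; H2bc4 and Ier2 lie highest, and Usp17ld lies lowest.

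The number of calls depended on which arrays shared the estimate of spread. Day 1 replicate 1 and day 9 replicates 2 and 3 are called here the 3 arrays that stood apart. The reason is that their medians over all probe sets (4.748, 4.696 and 4.642) were above those of the other 21 arrays (4.402 to 4.618). Over the genes that were tested they did not stand apart by this measure. There their medians were 5.236, 5.071 and 5.039, within the range of the other 21 arrays (5.012 to 5.255). The SD of deviations from the group mean did not single out the same arrays. It was 0.447 for day 1 replicate 1, but 0.172 and 0.146 for day 9 replicates 2 and 3, below the 0.234 of day 9 replicate 1 and the 0.278 of day 1 replicate 2; on days 7 and 11 it was 0.109 to 0.129. In a fit without those 3 arrays the changes were the same and 2877 genes passed (14.4%), 829 higher (4.16%) and 2048 lower (10.3%), including all 401. Where a gene group is counted below, its count in that fit follows, to be read against these larger shares. Leaving out day 7 replicate 1, 2 or 3 gave 15, 62 or 26 calls, and leaving out day 11 replicate 1, 2 or 3 gave 24, 11 or 49. The balance of rises and falls moved with scaling: 305 higher and 264 lower after cyclic loess, and 54 higher and 89 lower with arrays centred on their medians. Of 58 called genes named in these paragraphs and chosen by rule, 7 kept their call whichever of the 6 arrays was left out (Ccl5, Ccnf, Dad1, H1f2, H2bc4, Kng2 and Ppp1r10), 21 lost it without 1 to 5 of the arrays, and 30 lost it without any of the 6.

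Replication-dependent histone genes held 4 of the 12 called rises of at least 2-fold. Of 11 measured genes of the list, 4 rose, none fell and 7 did not pass (4 of 11 against 0.547% of all genes), with a median change of 0.25 beside -0.01 over all genes; without the 3 arrays that stood apart 5 rose, against 4.16% of all genes. These genes encode the histones that package newly copied DNA, and many of their mRNAs end in a stem-loop rather than a poly(A) tail. Copies of 1 histone type are nearly identical in sequence, so which copy gave a signal is uncertain.

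H2bc4, which encodes a histone H2B, read 5.69, 5.83 and 4.69 on the day 7 arrays and 6.90, 6.94 and 7.12 on the day 11 arrays. All day 11 values lay above all day 7 values, and day 7 replicate 3 was the lowest. The rise was 1.58 (SE 0.25, 3.00-fold, adjusted p = 0.00416), the largest called in this contrast. The control mean was 5.39 (SD 0.36, n = 3) and the day 7 mean 5.40 (SD 0.62, n = 3), so that day 11, at 6.99 (SD 0.11, n = 3), was the high point of the 8 group means. H2bc8, another H2B gene, read 5.72, 6.02 and 5.16 on day 7 and 7.16, 7.25 and 6.35 on day 11. Its ranges were apart, with day 11 replicate 3 below the other day 11 arrays, and the rise was 1.28 (SE 0.25, adjusted p = 0.014).

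The linker histone genes, whose products bind DNA between nucleosomes, followed. H1f2 read 7.87, 8.07 and 7.25 on day 7 and 8.82, 8.97 and 9.08 on day 11, a rise of 1.23 (SE 0.18, adjusted p = 0.00409). On day 7 H1f2 stood 0.98 above control, against 0.01 for H2bc4 and 0.05 for H2bc8. H1f3 read 3.70, 3.80 and 3.32 on day 7 and 4.45, 4.75 and 4.65 on day 11, a rise of 1.01 (SE 0.22, adjusted p = 0.0252). H1f3 was a dim gene, with all of these values below the lowest median of a day 7 or day 11 array (5.02). H2bc8, H1f2 and H1f3, unlike H2bc4, had been higher on day 4 than on day 11. The means on day 4 and day 11 were 7.92 and 6.92 for H2bc8, 9.01 and 8.96 for H1f2, and 5.03 and 4.62 for H1f3. H1f5 moved by 0.77 and did not pass (adjusted p = 0.0912, and 1.55e-04 without the 3 arrays that stood apart). It still lay 3.67 below control on day 11. In all of H2bc4, H2bc8, H1f2 and H1f3 the lowest of the 6 arrays was day 7 replicate 3. Without it the adjusted p was 0.076 for H2bc8 and 0.107 for H1f3. Leaving out each array in turn gave adjusted p from 0.0185 to 0.0856 for H2bc8, with the call lost for 4 arrays, and from 0.0609 to 0.127 for H1f3, lost for each of the 6; H2bc4 and H1f2 passed throughout.

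The H2bc8, H1f2 and H1f3 promoters are shown because these genes rose together and lie on one chromosome. H2bc4, which rose too, had no promoter entry in the sequences used and is not shown. The 250 bases before each RefSeq start (GRCm38.p6, plus strand) span chr13:23571150-23571399 for H2bc8, chr13:23738557-23738806 for H1f2 and chr13:23554782-23555031 for H1f3. Capitals mark matches on either strand to the octamer ATTTGCAT, to CCAAT and to TATAAA, motifs long known from histone gene promoters; none of these matches overlaps another.
H2bc8: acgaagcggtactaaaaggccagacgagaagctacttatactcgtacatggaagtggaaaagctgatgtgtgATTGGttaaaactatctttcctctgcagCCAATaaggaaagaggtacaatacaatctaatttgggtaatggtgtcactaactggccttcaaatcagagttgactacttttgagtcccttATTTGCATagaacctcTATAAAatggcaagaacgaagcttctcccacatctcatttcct
H1f2: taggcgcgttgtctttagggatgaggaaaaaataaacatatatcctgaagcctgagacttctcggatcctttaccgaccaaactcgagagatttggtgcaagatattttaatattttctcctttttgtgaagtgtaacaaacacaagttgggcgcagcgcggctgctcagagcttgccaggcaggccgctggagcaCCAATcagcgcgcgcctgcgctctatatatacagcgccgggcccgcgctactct
H1f3: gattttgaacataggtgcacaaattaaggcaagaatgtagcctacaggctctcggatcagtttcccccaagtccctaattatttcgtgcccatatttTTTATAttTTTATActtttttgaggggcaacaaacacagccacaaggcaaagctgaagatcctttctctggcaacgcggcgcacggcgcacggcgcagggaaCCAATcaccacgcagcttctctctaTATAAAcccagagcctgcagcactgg

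A CCAAT match stood in all 3 promoters shown, beside 33.8% of 32851 RefSeq promoter windows of the same length. The octamer stood in that of H2bc8 only, at position -59 from the start, beside 1.6% of windows. TATAAA stood in H2bc8 at -43 and in H1f3 at -26 and, on the minus strand, at -153 and -145, beside 12.4% of windows. A match is a string of letters and not a measured binding site.

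**Figure D2:**
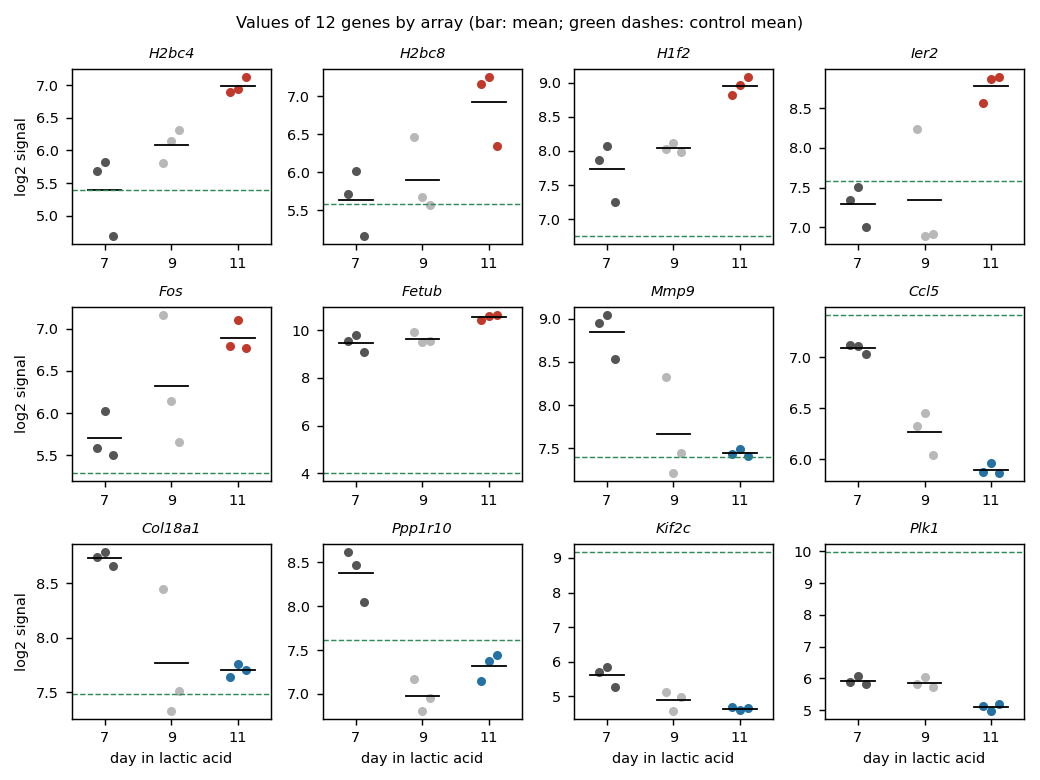
Log2 signal (y axis) of 12 genes on the 3 arrays each of days 7, 9 and 11 in lactic acid (x axis); each point is 1 array, black bars are group means and the green dashed line is the control mean. Red and blue points are the day 11 arrays of genes that rose and fell; in all 12 genes they lie on one side of the day 7 arrays, and day 9 replicate 1 often lies apart from day 9 replicates 2 and 3.

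Among 25 immediate early genes 3 rose from day 7 to day 11, Nr4a1 fell and 21 did not pass, with a median change of 0.13. Over all genes 0.547% rose and 1.46% fell. With the 3 arrays that stood apart omitted, 5 of the 25 rose and 3 fell, against 4.16% and 10.3% of all genes. Ier2, an early-response nuclear protein gene, read 7.35, 7.51 and 7.01 on day 7 and 8.57, 8.87 and 8.89 on day 11. The groups did not overlap, and the rise was 1.49 (SE 0.25, 2.81-fold, adjusted p = 0.0079). Fos, a subunit of the AP-1 transcription factor, read 5.58, 6.03 and 5.50 on day 7 and 6.80, 7.10 and 6.77 on day 11, a rise of 1.19 (SE 0.25, adjusted p = 0.0168). Fos had stood 1.87 above control on day 5 and 0.42 above it on day 7. Ier3, an early-response survival gene, rose by 0.76 (SE 0.15, adjusted p = 0.0165) to a day 11 mean of 9.01 (SD 0.14), below its control mean of 9.23.

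Nr4a1, an orphan nuclear receptor gene, moved the other way, from 7.66, 7.75 and 7.18 on day 7 to 6.85, 6.96 and 6.94 on day 11 (-0.61, SE 0.16, adjusted p = 0.0459). Egr1 (0.70) and Jun (0.55) did not pass. With the 3 arrays that stood apart omitted their adjusted p was 6.26e-04 and 0.00231. The calls of this group were sensitive to single arrays. Without day 7 replicate 3 or day 11 replicate 2 the adjusted p of Ier2 was 0.0547 or 0.0577, and no member of the list passed. Fos lost its call in 5 of 6 omissions (adjusted p up to 0.106), Ier3 in 5 (up to 0.0856) and Nr4a1 in all 6 (up to 0.205).

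**Figure D3:**
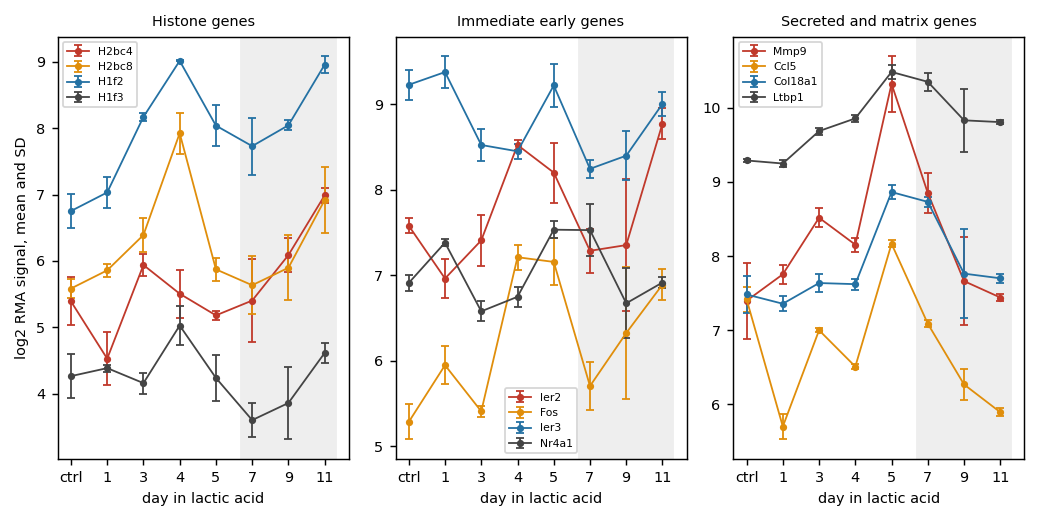
Group means and SD (n = 3 arrays) of log2 signal (y axis) in control (ctrl) and on each sampled day in lactic acid (x axis, days evenly spaced) for 4 histone, 4 immediate early and 4 secreted or matrix genes. Grey shading covers days 7 to 11, over which H2bc4 climbs from 5.40 to 6.99 and Mmp9 returns from 8.85 to 7.44, near its control mean of 7.40.

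Of 33 mitosis and spindle genes 2 fell, none rose and 31 did not pass (2 of 33 against 1.46% of all genes), and 27 had a change below 0, with a median of -0.33. In the fit without the arrays that stood apart 15 fell, against 10.3% of all genes, among them Kif11 (-0.85, adjusted p = 5.85e-04), Tpx2 (-0.55), Nuf2 (-0.74), Ccna2 (-0.75) and Mki67 (-0.56), and Cdk1 rose (0.26, adjusted p = 0.0396). Kif2c, a kinesin that takes microtubules apart at the centromere, read 5.71, 5.86 and 5.26 on day 7 and 4.68, 4.61 and 4.66 on day 11. The groups were apart and the fall was -0.96 (SE 0.18, adjusted p = 0.0139). The control mean was 9.18 (SD 0.08), 3.57 above day 7 and 4.53 above day 11.

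Plk1, the polo-like kinase that drives entry into mitosis, read 5.89, 6.08 and 5.82 on day 7 and 5.12, 4.99 and 5.19 on day 11, a fall of -0.83 (SE 0.19, adjusted p = 0.0303), and lay 4.88 below control on day 11. Ccnf, which encodes the ubiquitin ligase subunit cyclin F, was named for its size and read 6.01, 6.14 and 5.96 on day 7 and 5.05, 5.26 and 5.17 on day 11, a fall of -0.88 (SE 0.14, adjusted p = 0.00463). It too was far below control, by 3.64 on day 11. Kif2c lost its call in 5 of 6 omissions of an array (adjusted p up to 0.0877) and Plk1 in all 6 (0.0792 to 0.148), so that at most 1 member of the list passed with an array left out; Ccnf kept its call.

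None of 33 DNA replication and nucleotide supply genes passed, against 2.01% of all genes, and the median was -0.06, which was 0.03 after cyclic loess and -0.015 with arrays centred on their medians. The largest changes were 0.45 in Pcna, the sliding clamp of DNA polymerase, and -0.45 in Pola2, a subunit of the priming polymerase. Without the 3 arrays that stood apart 4 rose and 6 fell. G1 cyclins, CDK inhibitors and pocket proteins had no called member among 23 (1 rose and 2 fell in that fit). Of 23 p53-linked genes Gadd45g, a stress-induced growth arrest gene, fell by 0.81 (adjusted p = 0.0142, and up to 0.0856 with an array left out); 4 rose and 4 fell without the 3 arrays.

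Of 20 matrix protease and inhibitor genes 2 fell, against 1.46% of all genes, and none rose, with a median of -0.18. In the fit without the 3 arrays that stood apart 7 fell, against 10.3% of all genes (Plaur, Plau, Mmp14, Mmp3 and Mmp19 besides the 2 called). Mmp9, the gelatinase that degrades type IV collagen, read 8.95, 9.05 and 8.54 on day 7 and 7.43, 7.49 and 7.41 on day 11. The groups did not overlap and the 3 day 11 values were close together. Its fall of -1.41 (SE 0.24, 2.65-fold, adjusted p = 0.0079) was the largest of the named genes after Usp17ld, a member of a multi-copy family. Mmp9 had been highest on day 5, 2.92 above control, and on day 11 it was 0.04 above control. Mmp11, which encodes stromelysin-3, fell by 0.56 (SE 0.10, adjusted p = 0.0116). Without day 7 replicate 1 or day 11 replicate 2 the adjusted p of Mmp9 was 0.0598 or 0.054 and neither gene passed.

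Of 37 collagen, laminin, proteoglycan and integrin genes 1 fell and none rose, a count near the 1.46% of all genes that fell, and the median was -0.16. Without the 3 arrays that stood apart 12 fell, against 10.3% of all genes, among them Col4a2 (-0.50, adjusted p = 4.95e-04), Col4a1 (-0.41), Lama5 (-0.52) and Itgav (-0.41). Col18a1, a basement membrane collagen that is the precursor of endostatin, read 8.74, 8.79 and 8.66 on day 7 and 7.64, 7.76 and 7.70 on day 11. The groups did not overlap, and the fall was -1.03 (SE 0.19, adjusted p = 0.0116), which left the day 11 mean 0.22 above control after 1.25 above it on day 7. Its adjusted p was 0.0645, 0.0558 and 0.0577 without day 7 replicate 1, day 11 replicate 1 and day 11 replicate 2.

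Growth factor lists held 1 call each, near the share over all genes (2.01%). Ltbp1, whose product holds latent TGF-beta in the matrix, fell by 0.54 (SE 0.14, adjusted p = 0.0449), the only call among 26 TGF-beta pathway genes (1 rose and 4 fell without the 3 arrays). Pdgfb, a platelet-derived growth factor chain, fell by 0.52 (SE 0.13, adjusted p = 0.0397), the only call among 19 EGF and PDGF family genes (7 fell without the 3 arrays). Both calls were lost with any 1 of the 6 arrays left out and after cyclic loess (adjusted p = 0.058 and 0.0761). Ace, which encodes the angiotensin-converting enzyme, read 7.73, 7.75 and 7.40 on day 7 and 6.55, 6.66 and 6.86 on day 11, a fall of -0.94 (SE 0.19, adjusted p = 0.0147), and stayed 1.81 above control. Its call was lost with 4 of the arrays left out (adjusted p up to 0.0915).

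Fetub and Kng2, which encode secreted plasma proteins, rose. Fetub, the gene of fetuin-B, an inhibitor of certain metalloproteinases, had climbed from a control mean of 4.00 (SD 0.19) to 9.47 (SD 0.38) on day 7, and read 9.54, 9.81 and 9.06 on the day 7 arrays against 10.42, 10.60 and 10.65 on day 11. The ranges were apart, and the further rise was 1.09 (SE 0.18, 2.12-fold, adjusted p = 0.00709), to 6.56 above control. Without day 7 replicate 3 or day 11 replicate 2 its adjusted p was 0.0547 or 0.0545. Kng2, a kininogen gene, read 4.42, 4.54 and 4.75 on day 7 and 5.91, 5.63 and 5.95 on day 11, a rise of 1.26 (SE 0.20, adjusted p = 0.00416), from 0.71 to 1.97 above control. Its day 9 values, 5.42, 5.36 and 5.42, lay between both groups. Fetub was the only call among 22 acute-phase and secreted innate genes, whose median change was 0.04; 2 rose without the 3 arrays that stood apart.

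Of 21 chemokine genes Ccl5 and Cxcl10 fell, against 1.46% of all genes, and the median change was 0.03 (1 rose and 2 fell without the 3 arrays). Ccl5, a chemokine for T cells and monocytes, read 7.12, 7.11 and 7.03 on the day 7 arrays, 6.32, 6.45 and 6.04 on those of day 9, and 5.87, 5.96 and 5.86 on those of day 11. The 3 groups followed each other without overlap. The fall from day 7 to day 11, -1.19 (SE 0.12, 2.29-fold), had the smallest adjusted p of the contrast, 9.65e-06, and it passed in all 19 alternative analyses. Ccl5 had been 0.75 above control on day 5; it was below control by 0.33 on day 7 and by 1.52 on day 11. Cxcl10, an interferon-induced chemokine, fell by 0.65 (SE 0.16, adjusted p = 0.0367), a call lost with any of the 6 arrays left out (0.0927 to 0.175). Cxcl1 (0.55) did not pass.

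In the interferon response Stat2, a subunit of the factor that turns on these genes, was the only call among 29 genes, a count near the 1.46% of all genes that fell. Of the 29, 23 had a change below 0, and the median was -0.26. Stat2 read 7.80, 7.60 and 7.72 on day 7 and 7.02, 7.20 and 6.78 on day 11, without overlap (-0.71, SE 0.14, adjusted p = 0.0168, up to 0.108 with an array left out). With those 3 arrays left out of the fit 10 members fell, against 10.3% of all genes, and none rose, among them Irf9 (-0.59, adjusted p = 0.00146), Oasl2 (-0.64) and Irf7 (-0.83, adjusted p = 0.00413, against 0.0551 in the fit of all arrays). None of 10 interferon-inducible GTPases and none of 14 MHC and antigen processing genes passed (in the MHC list 2 rose and 4 fell without the 3 arrays). Ikbke, a kinase of innate immune signalling, fell by 0.55 (adjusted p = 0.0441), the only call among 22 NF-kB and Toll-like receptor genes; 6 fell without the 3 arrays, and its own call was lost with any of the 6 arrays left out (0.107 to 0.166).

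Of 15 fatty acid synthesis genes 2 fell, against 1.46% of all genes, and none rose, with a median of -0.28. Without the 3 arrays that stood apart 8 fell, against 10.3% of all genes, among them Fads1 (-0.41), Elovl1 (-0.34) and Acly (-0.30), and Me1 rose (0.32). Scd2, a desaturase that makes monounsaturated fatty acids, read 9.99, 9.87 and 9.79 on day 7 and 9.16, 9.10 and 9.25 on day 11, without overlap, a fall of -0.71 (SE 0.14, adjusted p = 0.0142). Acss2, which turns acetate into acetyl-CoA, fell by 0.63 (SE 0.14, adjusted p = 0.0268). Both were below control on day 11, by 2.06 and 0.83. Scd2 lost its call in 5 of 6 omissions of an array (up to 0.0891) and Acss2 in all 6 (0.0703 to 0.158).

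Of 20 cholesterol genes Insig1, which holds the sterol sensor in the endoplasmic reticulum, fell by 0.59 (SE 0.12, adjusted p = 0.0194), and the median was -0.17. The other 19 did not pass, which is near the share over all genes, and without the 3 arrays 4 fell, against 10.3% of all genes (Lss, Insig1, Srebf2 and Pmvk). Insig1 lost its call with any of the 6 arrays left out (0.0547 to 0.127) and with arrays centred on their medians (0.0684). None of 22 fatty acid oxidation genes passed (3 rose and 1 fell without the 3 arrays), and their median was 0.00.

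Genes of glucose and lactate use moved by less than 2-fold, and 1 or 2 of each list fell, beside 1.46% of all genes. Of 20 glycolysis and glucose uptake genes Pfkm, the muscle form of phosphofructokinase, fell by 0.47 (SE 0.11, adjusted p = 0.033), and 19 had a change below 0. Txnip, which restrains glucose uptake, read 0.78 lower on day 11 and did not pass (adjusted p = 0.00314 without the 3 arrays that stood apart, in which 6 of the list fell and Pgk1 rose). Of 23 lactate, pyruvate and anaplerosis genes 2 fell: Ldhd, a mitochondrial D-lactate dehydrogenase, by 0.63 (SE 0.14, adjusted p = 0.0273), and Pcx, the pyruvate carboxylase that refills the TCA cycle, by 0.59 (SE 0.15, adjusted p = 0.0449). The median of that list was 0.00, and 1 rose and 2 fell without the 3 arrays. Each of the Pfkm, Ldhd and Pcx calls was lost with any of the 6 arrays left out (adjusted p up to 0.163, 0.123 and 0.209).

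Of 43 respiratory chain genes 1 rose and 1 fell, beside 2.01% of all genes called, with a median of 0.11. Without the 3 arrays 7 rose and 5 fell, beside 4.16% and 10.3% of all genes. Ndufc2, a subunit of complex I, read 8.63, 8.65 and 8.64 on day 7 and 9.68, 9.58 and 9.53 on day 11, a rise of 0.95 (SE 0.20, adjusted p = 0.0168) that returned it to 0.28 above control. Atp5d, the delta subunit of ATP synthase, read 10.67, 10.76 and 10.54 on day 7 and 9.97, 10.02 and 9.98 on day 11, a fall of -0.66 (SE 0.17, adjusted p = 0.0459). The day 9 arrays split the same way in both genes: for Ndufc2 day 9 replicate 1 read 8.72 and replicates 2 and 3 read 9.68 and 9.85, and for Atp5d they read 10.57, 9.50 and 9.60. Both calls were lost with any of the 6 arrays left out (up to 0.0885 and 0.172), and that of Atp5d also after cyclic loess (0.0553). None of 20 TCA cycle genes passed; 5 rose and 3 fell without the 3 arrays.

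Of 30 proteasome subunit genes 2 rose, against 0.547% of all genes, and none fell. They were Psma5 (0.59, adjusted p = 0.0456) and Psma7 (0.48, adjusted p = 0.0298), both of the alpha ring of the core particle; 23 of the 30 had a change above 0, with a median of 0.20. Psma7 read 9.18, 9.30 and 9.25 on day 7 and 9.71, 9.72 and 9.75 on day 11, without overlap. A fit lacking the 3 arrays that stood apart had 14 rises, against 4.16% of all genes, and 1 fall, Psmd3. The other alpha subunits Psma1 (0.61), Psma2 (0.66), Psma3 (0.70), Psma4 (0.27) and Psma6 (0.56) were among the 14, as was the regulatory subunit Psmd14 (0.68). On day 11 Psma5 and Psma7 were still below control, by 0.26 and 0.24. Neither passed with arrays centred on their medians (0.0834 and 0.0654) or with any of the 6 arrays left out, and Psma5 did not pass with the mean of its probe sets (0.0533).

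Lists of genes that make proteins held 1 or 2 calls each, beside 2.01% of all genes, and beside 14.4% of all genes in the fit without the 3 arrays. Rps4x, a protein of the small cytosolic ribosomal subunit, rose by 0.48 (SE 0.12, adjusted p = 0.0442), the only call among 24 such genes, whose median was 0.12 (7 rose and 1 fell without the 3 arrays); it has 5 probe sets, all between 0.40 and 0.59, and near-identical copies. Mrpl13, of the large mitochondrial subunit, rose by 0.63 (SE 0.12, adjusted p = 0.0142), 1 of 33 (5 rose and 4 fell without the 3 arrays). Among 26 ribosome biogenesis and MYC genes 2 fell: the nucleolar protein gene Mybbp1a by 0.68 (SE 0.13, adjusted p = 0.0142) and Polr1b, a subunit of RNA polymerase I, by 0.63 (adjusted p = 0.0314), and the median was -0.11 (3 rose and 6 fell without the 3 arrays). Among 23 tRNA synthetase genes 2 fell, with 2 rising and 7 falling without the 3 arrays. Vars, which charges tRNA with valine, fell by 0.66 (adjusted p = 0.0263). Aars2, a mitochondrial synthetase for alanine, fell by 0.62 (adjusted p = 0.0194). Each of these 6 calls was lost for at least 5 of the 6 arrays left out, and that of Rps4x also after cyclic loess (0.0634).

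Stress lists held at most 1 call each, beside 2.01% of all genes. Atf5, a transcription factor of the amino acid response, was the only call among 31 ATF4-linked genes, falling by 0.73 (SE 0.16, adjusted p = 0.0264), and its day 11 mean remained 0.82 above control (3 of the list rose and 4 fell without the 3 arrays). Mt2, a metal-binding metallothionein gene, fell by 0.71 (SE 0.15, adjusted p = 0.0168), the only call among 28 NRF2, glutathione and pentose phosphate genes (2 rose and 3 fell). Map1lc3a, an autophagosome protein gene, fell by 0.58 (SE 0.13, adjusted p = 0.0268) among 27 autophagy genes (1 rose and 6 fell). Among 26 endoplasmic reticulum chaperone and degradation genes none passed in either fit; 24 of the 26 had a change below 0, the median was -0.14 and the largest change was -0.76 in Sdf2l1. With an array left out Atf5 and Map1lc3a lost their calls for all 6 (up to 0.127 and 0.119) and Mt2 for 5 (up to 0.107), and Atf5 did so after cyclic loess (0.0539).

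**Figure D4:**
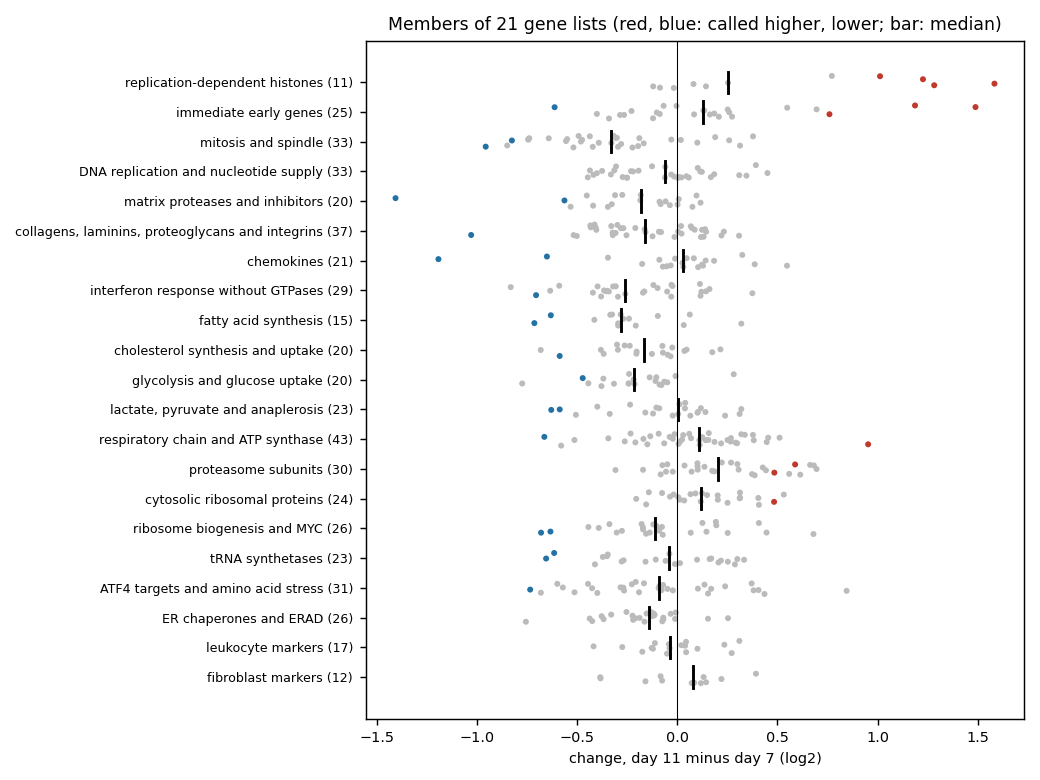
Change from day 7 to day 11 (x axis, log2) of each measured member of 21 gene lists (y axis, number of members in brackets). Red and blue points were called higher and lower, grey points were not called, vertical jitter has no meaning and black bars are list medians; the median of the mitosis list is -0.33 and that of the histone list 0.25.

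No member passed in the remaining lists, against 2.01% of all genes: interleukins and related factors (21 genes), lysosome (27), FoxO targets and insulin signalling (24), hypoxia and HIF-1 targets (24), heat shock chaperones (20), BCL2 family, caspases and IAPs (27), epithelial junctions and keratins (30), iron handling (17), pH regulation and acid sensing (18), circadian clock (17), and AMPK and mTORC1 regulators (24). The largest changes in these were 1.02 in Rheb, the activator of mTORC1 (adjusted p = 0.0982), 0.91 in the hypoxia-induced Higd1a, 0.76 in the haem oxygenase gene Hmox1 and 0.72 in the lysosomal membrane gene Cd63. The other, dimmer probe set of Higd1a moved by 0.46. In the fit without the 3 arrays that stood apart Rheb, Higd1a and Cd63 passed (adjusted p = 1.24e-06, 4.9e-04 and 3.64e-04). Hmox1 did not pass in that fit. Without the 3 arrays that stood apart the calls, higher and lower, were 7 and 4 for lysosome, 3 and 7 for the BCL2 and caspase list, 4 and 1 for heat shock, 3 and 3 for hypoxia, 1 and 6 for AMPK and mTORC1, 0 and 5 for FoxO, 0 and 3 for epithelial junctions, 2 and 2 for clock genes, 0 and 2 each for iron and pH, and 0 and 1 for interleukins.

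Other large changes fell outside the lists. Rnf7, the RING subunit of some cullin ubiquitin ligases, read 7.30, 7.22 and 7.24 on day 7 and 8.29, 8.23 and 8.59 on day 11, a rise of 1.12 (SE 0.23, adjusted p = 0.017). Pfdn4, a subunit of the chaperone prefoldin, rose by 1.05 (adjusted p = 0.0143), and Glrx3, a glutaredoxin of iron-sulfur cluster handling, by 1.10 (adjusted p = 0.0404). In Rnf7 and Pfdn4 day 9 replicates 2 and 3 lay near or above the day 11 values and day 9 replicate 1 lay nearer to those of day 7. Hmgn5, a nucleosome-binding protein gene, rose by 1.05 (adjusted p = 0.0451) back to 0.07 above control. These 4 calls were lost with any of the 6 arrays left out, the adjusted p reaching 0.0961, 0.0885, 0.177 and 0.163.

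Spred2, an inhibitor of Ras-to-ERK signalling, read 8.79, 8.85 and 8.52 on day 7 and 9.56, 9.76 and 9.73 on day 11, a rise of 0.96 (SE 0.15, adjusted p = 0.00463, and 0.0538 without day 11 replicate 2). Its other probe set moved by 0.09. Prkg2, a cGMP-dependent kinase gene, rose by 0.94 (adjusted p = 0.0282) on its brighter probe set and moved by -0.28 on the other, and it did not pass with their mean (0.209).

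Among the falls, Ppp1r10, a nuclear regulator of protein phosphatase 1, read 8.62, 8.47 and 8.05 on day 7 and 7.15, 7.38 and 7.44 on day 11. The groups were apart, the fall was -1.06 (SE 0.16, 2.08-fold, adjusted p = 0.00416), and the day 11 mean lay 0.29 below control after 0.77 above it on day 7. Dad1, a subunit of the enzyme that attaches N-linked glycans, read 9.92, 9.81 and 9.89 on day 7 and 8.99, 8.94 and 8.96 on day 11, a fall of -0.91 (SE 0.14, adjusted p = 0.00416). Ppp1r10 and Dad1 kept their calls with each array left out. Snora52, a small nucleolar RNA, fell by 1.18 (SE 0.20, adjusted p = 0.00679, and 0.0598 without day 7 replicate 1). Usp17ld read 7.27, 8.10 and 7.85 on day 7 and 5.71, 5.03 and 5.65 on day 11, a fall of -2.28 (SE 0.51, adjusted p = 0.0255); it belongs to a multi-copy deubiquitinase family, so which copy changed is uncertain, and its call was lost with any of the 6 arrays left out.

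The deubiquitinase gene Usp20 (-0.93), Ghdc (-0.93), the biotin-recycling enzyme gene Btd (-0.91), Pyroxd2 (-0.91) and Ccdc159 (-0.87) complete the named falls. Their adjusted p ran from 0.0079 for Pyroxd2 to 0.0165 for Usp20, and each was apart between the groups. Btd and Ghdc rose from day 3 to day 7, by 1.03 and 1.08, before they fell. Each of these 5 lost its call for at least 2 of the arrays left out (adjusted p up to 0.101 for Usp20).

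Marker genes were read to check the labelled cell type. Krt8 and Krt18, keratins of simple epithelium, had day 11 means of 10.54 and 11.09. Leukocyte, fibroblast, endothelial and adipocyte marker lists (17, 12, 12 and 8 genes) had no called member. The mean level of the leukocyte list lay between 3.53 and 3.60 on day 7 arrays and between 3.48 and 3.59 on day 11 arrays, and that of the fibroblast list between 4.62 and 4.66 and between 4.58 and 4.69. Ptprc, Pecam1 and Adipoq, the defining leukocyte, endothelial and adipocyte genes, had day 11 means of 3.27, 3.63 and 2.55, below the lowest median of a day 7 or day 11 array (5.02). Not all listed markers were low. On day 11 Eng, of the endothelial list, had a mean of 8.665 and Pdgfrb, of the fibroblast list, 6.619. Their control means were 8.394 and 5.299. The 10 markers of the 4T1 epithelium had a mean of 6.57 to 6.70 on day 7 and 6.50 to 6.56 on day 11, without overlap, and none passed; Epcam (4.75 on day 11) was below the array median. In the fit without the 3 arrays, 2 of the 12 fibroblast genes (Pdgfra and Pdgfrb) and 2 of the 10 epithelial genes (Cdh1 and Erbb3) fell.

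The change from day 7 to day 11 was also set against the change over the 4 days before, from day 3 to day 7. The difference of both changes passed in 2250 genes (11.3%), 462 with the later change higher (2.32%) and 1788 with it lower (8.97%); 4930 passed without the 3 arrays that stood apart. Without day 7 replicate 1, 2 or 3 it passed in 887, 1240 or 1139. The day 7 arrays enter both changes with opposite signs, so a low or high day 7 array makes them differ, and the values are given as measured.

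Named genes fell on both sides of this test. Col18a1 rose by 1.09 from day 3 to day 7 and then fell by 1.03, a difference of -2.12 (SE 0.32, adjusted p = 4.27e-04). Stat2 rose by 1.15 and fell by 0.71, a difference of -1.86 (adjusted p = 1.49e-04). Fetub rose in both intervals, by 2.13 and then 1.09, and the difference of -1.05 (SE 0.31) passed (adjusted p = 0.0333). For Kif2c the fall from day 3 to day 7 was -1.59 and the later one -0.96, a difference of 0.63 (SE 0.31) that did not pass (adjusted p = 0.22). In the mitosis list 14 of 33 genes passed with the later change higher, beside 2.32% of all genes, and none with it lower. A higher later change need not be a rise: 27 of the 33 had a change below 0 from day 7 to day 11. Of 29 interferon response genes 15 passed, each with the later change lower, beside 8.97% of all genes.

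The called genes differed from the rest in level and in their earlier course. Their median level over all 24 arrays was 7.48 for rises and 7.27 for falls, against 5.14 for all genes. This level includes the arrays compared. Dim genes are limited by signal over background and can pass less easily, so a higher level among called genes is no separate finding. The median GC content of their promoters was 59.0% for rises (87 of 109 genes with a promoter) and 61.0% for falls (236 of 292), against 57.5% for all genes. Genes were put into 5 bins of promoter GC. From the lowest bin to the highest, 0.342%, 1.19%, 2.02%, 2.08% and 1.98% of genes fell. In the same order 0.248%, 0.563%, 0.838%, 0.695% and 0.455% rose. Calls of both signs were thus fewest in the lowest bin, and the share that fell was alike from the middle bin upward. The median change was 0.03 in the lowest bin and -0.05 in the highest. The arrays differed along the same axis. For each array, the deviation of each gene from its mean over all 24 arrays was taken. The median deviation in the highest GC bin minus that in the lowest was 0.140 to 0.159 on day 7 arrays. On day 11 arrays it was 0.021 to 0.075, without overlap. It was -0.436 on day 1 replicate 1, -0.125 and -0.119 on day 9 replicates 2 and 3, and 0.107 on day 9 replicate 1. The part of this shift in the falls was not tested.

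The day 9 mean, outside the contrast, lay between those of days 7 and 11 in 326 of the 401 called genes. It lay beyond day 11 in 72 and on the far side of day 7 in 3. The called genes were chosen for a gap between days 7 and 11, and the share over all genes was not counted. Day 9 replicates 1, 2 and 3 were unlike in some genes, as in Col18a1 (8.45, 7.33 and 7.51), and alike in others, as in Kng2 (5.42, 5.36 and 5.42). Whether the course was gradual was not tested. Day 5 against control shares no array with the contrast. Of the 292 genes that fell, 217 (74.3%) had been above control on day 5, with a median of 0.37, and of the 109 that rose 38 (34.9%) had been above it, with a median of -0.19. Over all genes 56.9% were above control on day 5, with a median of 0.06.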

How the data were processed

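The authors deposited log2 signals. Per the submitters' processing notes, RMA was run in version 1.1 of Affymetrix Expression Console. Its settings were not given in the sources used here; base 2 of the logarithm is an inference from the span of values, 0.96 to 14.71. Of 35557 probe sets 21789 had 1 gene symbol in an annotation of 2016, 1621 had several and 12147 none. Each gene was its brightest probe set with 1 symbol (19938 genes, 999 with more than 1 probe set). The limma functions lmFit and eBayes (version 3.58.1, R 4.3.3) fitted the group means of all 24 arrays with 16 residual degrees of freedom, and p-values adjusted by the Benjamini-Hochberg method over all genes, as applies to every adjusted p given. SE is that of the fit, and SD is over 3 arrays, whose number limits the precision. The procedure was also run on simulated data in which a gene had the same spread on all arrays. That run does not cover the unequal spread of the measured arrays.

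The groups compared, the members of 48 gene lists (1087 of 1173 memberships measured) and the tests were chosen with earlier results of these data known. Named were the 15 largest called rises and falls with ranges apart, up to 3 called rises and falls per list, up to 2 largest changes of lists without calls, and 5 and 5 of the difference of changes; clone names and predicted genes were left out, and genes called only without the 3 arrays that stood apart were named after their values had been seen. Alternatives were other summaries of probe sets, other scalings, variance models, sets of arrays, a replicate block and thresholds. Same-numbered replicates of days 7 and 11 did not deviate together (r = -0.058, 0.047 and -0.082), so they were not paired. Promoters are RefSeq windows of GRCm38.p6. Figures were drawn with matplotlib 3.10.9.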

Additional observations from a re-analysis of the deposited data

Results flagged for a closer look

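In 10 genes, the 5 largest differences each way, the change from day 7 to day 11 differed from the change from day 3 to day 7 by the test of the difference itself (limma, adjusted over all genes); the day 7 arrays enter both changes. The later change was higher in Olfr767 (4.34, adjusted p = 9.71e-04), Fthl17f (2.51, adjusted p = 0.0035), the linker histone gene H1f5 (2.45, adjusted p = 8.63e-04), the glutathione transferase gene Mgst2 (2.38, adjusted p = 7.77e-05) and the cyclin gene Ccnb2 (2.36, adjusted p = 1.21e-04). Ccnb2 fell by 2.69 from day 3 to day 7 and read 0.33 lower on day 11 than on day 7. H1f5 fell by 1.68 in the earlier interval and lay 0.77 higher on day 11. The later change was lower in Usp17ld (-3.86, adjusted p = 0.00599), the small nucleolar RNA Snord37 (-3.14, adjusted p = 0.00136), the interferon regulator Irf7 (-3.05, adjusted p = 1.21e-04), the class I MHC gene H2-T24 (-2.92, adjusted p = 1.21e-04) and the matrix signalling gene Ccn1 (-2.89, adjusted p = 2.4e-05). Irf7 read 8.17, 8.25 and 8.03 on day 7 and 7.34, 7.39 and 7.24 on day 11, after a rise of 2.22 from day 3. Olfr767 read 5.18, 5.09 and 5.82 on day 7 and 7.71, 7.12 and 5.76 on day 11, so its groups overlapped. Fthl17f was dim, with 2.52, 2.52 and 2.88 on day 7 and 3.60, 3.81 and 3.93 on day 11. These values were below the lowest median of a day 7 or day 11 array (5.02). Olfr767, Fthl17f and Usp17ld belong to families with near-identical copies, and which copy changed is uncertain. With 3 arrays a group no single-gene values were searched for outlying samples within a group; this is apart from the 3 arrays set aside for their medians over all probe sets.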

How the results depend on the processing

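The 401 calls between days 7 and 11 (109 higher, 292 lower) became 253 with every probe set tested (98 and 155), 994 without the 40% dimmest genes (241 and 753), 143 with arrays centred on their medians (54 and 89), 689 with a mean trend and robust variances (180 and 509), 4921 with array weights (1609 and 3312), 2840 with only the 6 arrays compared (855 and 1985), 224 with only the 21 treated arrays (68 and 156) and 2877 when the 3 arrays that stood apart were omitted (829 and 2048). They were 17 at an adjusted p below 0.01 (7 and 10) and 19 with a 2-fold minimum (12 and 7). With an array left out they were 11 to 62, 4 to 16 higher and 7 to 47 lower. Cyclic loess gave 305 higher and 264 lower. In all the count was 394, 569 and 450 with the mean of probe sets, cyclic loess and the replicate block; with the block 382 of the 401 were shared and 1 named call was lost. Calls that were higher made up 27.2% in the main analysis, 53.6% after cyclic loess and 37.8% after centring, and 38.7% with every probe set tested. The difference of changes passed in 2250 genes, and in 7130 with array weights, 5004 with only the 9 arrays compared, 4930 without the 3 arrays, 961 at an adjusted p below 0.01, 1062 with a 2-fold minimum and 887 to 1935 with an array left out; the block gave 2192. None of the genes named for the change from day 7 to day 11 changed direction past the threshold under any of these. Direction was not followed in this way for genes named for the difference of changes. Among the named genes 402 of the verdicts under alternatives were a call lost, 128 a call gained and 1436 unchanged. Calls were lost for 5 of 58 named genes after cyclic loess, 20 after centring, 18 with every probe set and 12 with only the treated arrays. Lists with medians near 0 that changed sign after cyclic loess or centring include DNA replication, tRNA synthetases, hypoxia, FoxO, NRF2, TGF-beta, G1 and clock genes and mitochondrial ribosomal proteins. Dim genes are limited by signal over background, and 3 arrays a group limit all of these.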

Other observations

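Of the 13768 probe sets without a single gene symbol, which enter no gene count, 37 were called higher and 26 lower on day 11 than on day 7 when every probe set was tested.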
